A study of Homo sapiens with 6 samples.

Results

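The long exon segments are the intervals of 2000 bp or more (end minus start) in the authors' mRNA lists of an SF3B4 RNA immunoprecipitation sequencing (RIP-seq) study. The RIP-1 list held 385 of them among 10960 segments, and the RIP-2 list held 77 among 10280, so 462 of 21240 segments in all were long. They were chosen by this length alone. In RIP-seq an antibody pulls down a protein, and the RNA that comes with it is sequenced. Per the labels, the study used wild-type HEK293T, an embryonic kidney line of human origin that expresses the large T antigen of SV40, with no other genotype and no treatment. It comprised 6 libraries from 2 RIP experiments, each with 1 Anti-SF3B4, 1 IgG and 1 Input library. Only peak lists made once per experiment were analysed here, so each experiment stands as a single list without replicate error. The labels do not say whether the experiments used separate cultures. The authors named their lists mRNA and NotExon. The sources used here do not define these names, so "exon segment" follows the authors' name for the list. Because the lists hold positions without gene names, neither the gene of a segment nor the identity of the cells could be checked.

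SF3B4 belongs to the SF3b complex of the U2 small nuclear ribonucleoprotein, which contacts the intron around the branch site before the first step of splicing. METTL16, named beside SF3B4 in the title of the series, is a methyltransferase that makes N6-methyladenosine in RNA. Most internal exons of human genes are short, and splice sites are commonly recognised in pairs across them. Very long exons are more often the last exon of a gene, which carries most or all of the 3′ untranslated region, and a few genes have very long internal coding exons.

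Long segments were few but covered a large part of the RIP-1 list. In RIP-1 they made up 3.51% of the segments (95% Wilson confidence interval, CI, 3.18 to 3.87) and 21.2% of the covered bases, or 1124 of 5304 kb. In RIP-2 they made up 0.749% of the segments (95% CI 0.600 to 0.935) and 7.57% of the bases, or 226 of 2986 kb. The lists were alike in their number of segments, while the number of long ones differed by 385 to 77. This shift was not particular to the long segments. The class of 1000 to 1999 bp held 1060 RIP-1 segments against 348 of RIP-2, and that of 300 to 999 bp 2980 against 2317. Under 300 bp the order was the other one, with 6535 against 7538. The median length of the whole RIP-1 list was 216 bp, against 160 for RIP-2. Depth is unknown for every library and there is 1 list per experiment, so these differences were not tested. The intervals treat segments as independent and cover counting error only.

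Lengths among the long segments were similar in both lists, with most near the limit. The RIP-1 median was 2655 bp (quartiles 2224 and 3294) and the RIP-2 median 2463 bp (quartiles 2186 and 3173). In RIP-1, 255 measured under 3000 bp, 114 from 3000 to 4999 bp and 16 at least 5000 bp. The same classes held 53, 17 and 7 segments in RIP-2. The shortest RIP-1 members measured 2000, 2001 and 2002 bp, with scores of 513, 102 and 123. The shortest RIP-2 members measured 2000, 2003 and 2005 bp, with scores of 251, 265 and 97.1. The longest segments left out measured 1996, 1994 and 1993 bp in RIP-1, with scores of 855, 339 and 59.9. In RIP-2 they measured 1992, 1991 and 1988 bp, with scores of 103, 92.99 and 94.8.

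The longest RIP-1 segment stood far from the others. It lay on the minus strand at chr7:139246609-139258143 (hg19, as are all positions here, as deposited and known to within 1 bp), with a length of 11534 bp and a score of 930. The next was chr3:38527794-38534633 on the plus strand, 6839 bp long with a score of 223. It was followed by chr21:35470945-35477488 on the plus strand, 6543 bp long with a score of 57.9, which ranked 8929 among the 10960 RIP-1 scores. A plus-strand segment at chr15:42976313-42982551 measured 6238 bp and scored 102. The fifth, on the minus strand at chr11:47487488-47493654, measured 6166 bp and scored 1571. Length and score therefore did not rank these 5 segments in the same order. The chromosome 21 segment alone met a RIP-2 segment, where 6.41% of all RIP-1 segments did.

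In RIP-2 the longest segment was chr2:207169440-207176847 on the plus strand, with 7407 bp and a score of 193. The second was chr10:129900842-129907687 on the minus strand, with 6845 bp and a score of 2171. Next came chr17:27586215-27591609 on the minus strand, with 5394 bp and a score of 111, and chr3:121412587-121417776 on the minus strand, with 5189 bp and a score of 2202. The fifth was chr2:109379692-109384844 on the plus strand, with 5152 bp and a score of 244. None of these 5 met a RIP-1 segment, but only 6.91% of all RIP-2 segments did, so nothing is read from this. The nearest RIP-1 segment on the same strand lay 4.69 kb from the fifth, 22.8 kb from the first and between 127 and 1733 kb from the others.

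The deposited score looked like a p-value on a scale of 10 times its negative log10. It began near 50, and 3100 was the highest score in RIP-2 and among the long RIP-1 segments, while 7 shorter RIP-1 segments scored above it, up to 3218. Long segments scored higher than shorter ones in both lists. This is a description, since a longer peak can hold more reads and so reach a higher score. The RIP-1 median was 172 (95% CI of the median 148 to 197, quartiles 89.3 and 410) for long segments and 78.9 for shorter ones. The RIP-2 median was 120 (95% CI of the median 94.1 to 162, quartiles 79.2 and 248) for long segments and 79.4 for shorter ones. By class, the RIP-1 medians were 75.2 under 300 bp, 82.6 from 300 to 999 bp, 108 from 1000 to 1999 bp, 156 from 2000 to 2999 bp, 218 from 3000 to 4999 bp and 193 at 5000 bp or more. The RIP-2 medians of these classes were 78.9, 79.1, 93.8, 99.7, 150 and 244. Both experiments thus started from nearly the same median in short segments, and the medians of both lists were higher among long segments.

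**Figure D1:**
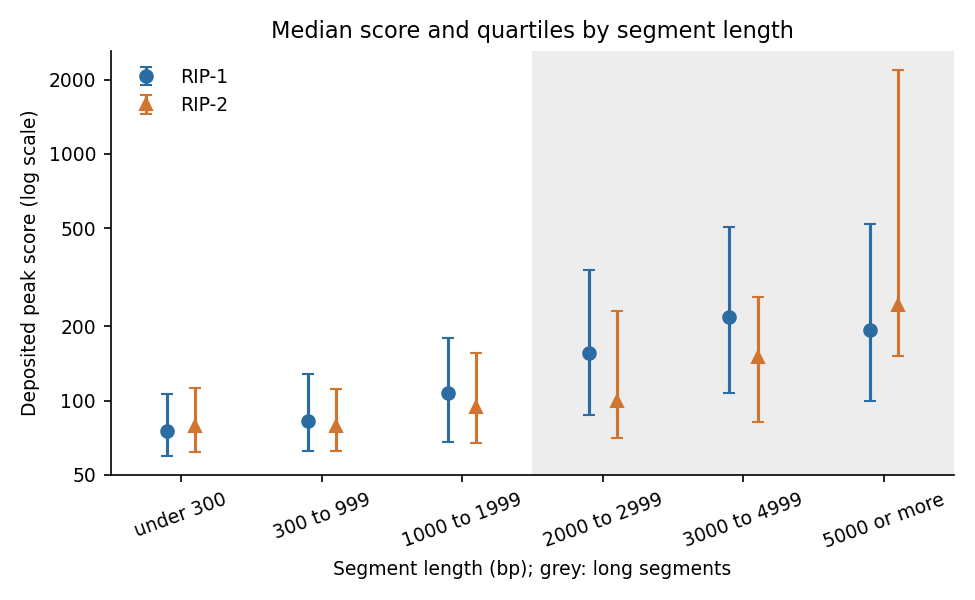
Median deposited peak score (log axis) of the segments of each mRNA list by length class in bp, with bars from the lower to the upper quartile. Circles are RIP-1, triangles are RIP-2, and the grey area marks the long segments. RIP-1 medians go from 75.2 to 218 and RIP-2 medians from 78.9 to 244, and the bar of the 7 longest RIP-2 segments reaches far above the others.

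Weak calls were nevertheless common among the long segments. Scores under 100 were given to 111 of the 385 RIP-1 segments (28.8%) and 33 of the 77 RIP-2 segments (42.9%), against 66.7% and 67.8% of the shorter segments. Within the long segments alone, the Spearman rho of length and score was 0.0957 for RIP-1 and 0.257 for RIP-2, given as a description across segments of a single list each.

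**Figure D2:**
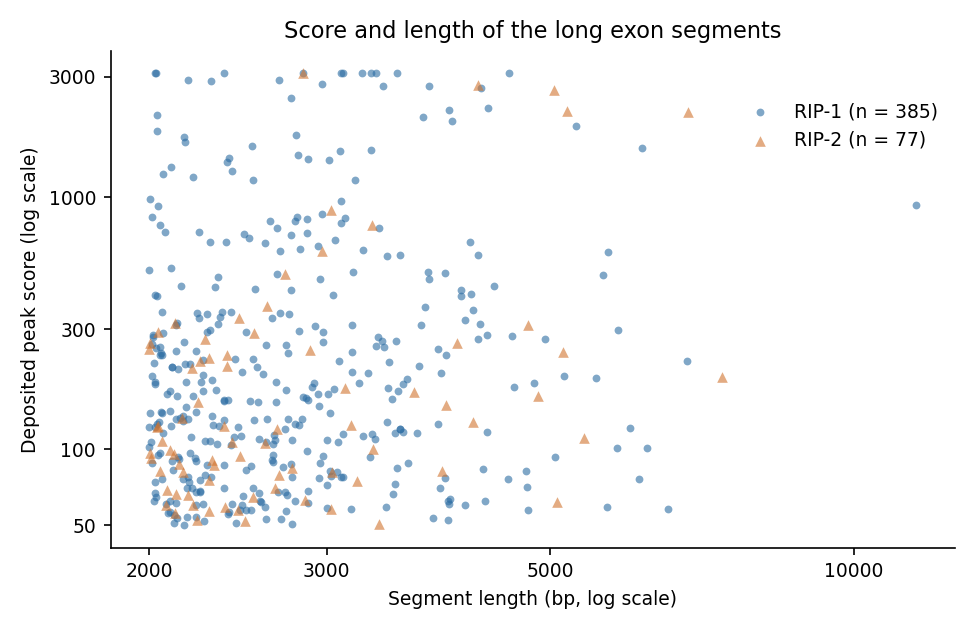
Deposited peak score against length for every long segment, both on log axes, with circles for the 385 RIP-1 segments and triangles for the 77 RIP-2 segments. Scores from about 50 up to 3100 occur across most of the lengths under 5000 bp, and the RIP-1 segment of 11534 bp stands alone at the right with a score of 930.

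The top of the RIP-2 list was made mostly of long segments. Of the 5 RIP-2 segments with the highest scores 4 were long, and of the top 10 there were 5. They were chr1:214817899-214820743 on the plus strand (2844 bp, score 3100), chr3:37365078-37369316 on the plus strand (4238 bp, score 2775), chr6:151669845-151674887 on the plus strand (5042 bp, score 2656), and the chromosome 3 and chromosome 10 segments of 5189 and 6845 bp described above. These 5 lay on 4 chromosomes. None had a RIP-1 partner, against 6.91% of all RIP-2 segments with one, so nothing is read from this. The nearest RIP-1 segment on the same strand was 12.3 kb away from the segment of 4238 bp and between 105 and 1733 kb away from the other 4. Among the top 100 RIP-2 segments 10 were long, and among the top 1000 there were 29, or 2.90%, against 0.749% of the whole list. As a longer peak can reach a higher score, these counts are a description.

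In RIP-1 the long segments reached a score of 3100 but none of the scores above it. None of the 5 RIP-1 segments with the highest scores was long, and 11 of the 58 with a score of 3100 or more were. These 11 all stood at exactly 3100, so they have no order among themselves. They measured from 2026 to 4551 bp and lay on 9 chromosomes, with 7 on the plus and 4 on the minus strand. The longest of them were chr2:178084135-178088686 (plus strand, 4551 bp), chr5:172741725-172745252 (minus, 3527 bp), chr12:125396149-125399508 (minus, 3359 bp), chr1:59246462-59249785 (minus, 3323 bp) and chr17:46135656-46138907 (plus, 3251 bp). None of the 11 met a RIP-2 segment. Only 6.41% of all RIP-1 segments did, so nothing is read from this about the 11. The nearest RIP-2 segment on the same strand lay between 54.2 and 892 kb away. Long segments made up 26 of the top 100 RIP-1 segments and 150 of the top 1000 (15%), against 3.51% of the whole list. A longer peak can hold more reads and so reach a higher score, so these counts are a description.

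Both strands carried long segments, and the intervals of their shares included those of the whole lists. In RIP-1, 202 lay on the plus and 183 on the minus strand, so the plus strand held 52.5% (95% CI 47.5 to 57.4), against 51.2% of all segments. In RIP-2, 33 lay on the plus and 44 on the minus strand, so the plus strand held 42.9% (95% CI 32.4 to 54.0), against 51.8% of all segments. Within the class of 3000 to 4999 bp the lists leaned in opposite ways, with 72 of 114 RIP-1 segments (63.2%, 95% CI 54.0 to 71.4) and 3 of 17 RIP-2 segments (17.6%, 95% CI 6.19 to 41.03) on the plus strand. That class was singled out after its values were seen, and the difference was not tested.

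Long RIP-1 segments were spread over 23 chromosomes and followed the size of the list on each. Chromosome 1 held 39, chromosome 17 held 29, chromosome 2 held 26, chromosome 7 held 25 and chromosome 3 held 24, and the Y chromosome held none of its 19 segments. As a share of the RIP-1 segments of a chromosome, they ranged from 2.02% on chromosome 4 (8 of 397, 95% CI 1.02 to 3.93) to 5.17% on chromosome 22 (14 of 271, 95% CI 3.10 to 8.48). Both intervals include the 3.51% of the whole list. All 8 on chromosome 4 lay on the plus strand, while 10 of 13 on chromosome 5 lay on the minus strand and 14 of 17 on chromosome 14 on the plus strand. The plus strand also held 14 of 20 on chromosome 12 and 11 of 14 on chromosome 22. Chromosomes 1, 2, 3 and 7 were near even. The uneven chromosomes were named after their counts were seen, without the strand shares of all their segments, and were not tested.

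Long RIP-2 segments lay on 21 chromosomes, with none on chromosomes 18, 22 and Y. Chromosome 3 held 10, chromosome 1 held 9, chromosome 2 held 8 and chromosome 6 held 7. Chromosome 3 thus carried 13.0% of the long RIP-2 segments but 6.70% of the list, and 1.45% of its segments were long (10 of 689, 95% CI 0.790 to 2.65). Chromosome 13 had 4 long segments among 233 (1.72%, 95% CI 0.670 to 4.33), and chromosome 5 had 1 among 545 (0.183%, 95% CI 0.0324 to 1.03). The intervals of chromosomes 13 and 5 include the 0.749% of the whole list. That of chromosome 3 lies above this share but overlaps the interval of the whole list (0.600 to 0.935). Chromosome 3 was named after its count was seen, and the difference was not tested. On chromosome 19, 22 of 665 RIP-1 segments (3.31%) and 1 of 298 RIP-2 segments (0.336%) were long.

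Per the series' design text, the RIP was done again and both runs were set against each other to remove unspecific signal, and the overlap of the lists addresses this. Few long segments were found again. Of the 385 long RIP-1 segments, 16 overlapped a RIP-2 segment by 1 bp or more on one strand (4.16%, 95% CI 2.57 to 6.64), against 6.41% of all RIP-1 segments. Of the 77 long RIP-2 segments, 9 overlapped a RIP-1 segment (11.7%, 95% CI 6.27 to 20.7), against 6.91% of all RIP-2 segments. Each interval includes the share of its whole list. In RIP-2 the class of 1000 to 1999 bp had a like share of 11.8%, and in RIP-1 that class had 5.38%. RIP-2 segments covered 28.8 kb of the long RIP-1 segments, or 2.57% of their bases, and RIP-1 segments covered 18.1 kb of the long RIP-2 segments, or 8.01%. Only 4 overlaps joined a long segment of each list. No segment of any length in either list met a segment of the opposite strand in the other experiment, so this is not particular to the long ones.

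The long RIP-1 segments that met a RIP-2 segment had low scores among the long segments. Their scores ran from 50.01 to 139 with a median of 69.0, while the 369 others had a median of 183. Scores over 100 were given to 6 of the 16 (37.5%), against 71.2% of all long RIP-1 segments and 34.6% of the whole RIP-1 list, whose median was 79.9. The shorter RIP-1 segments that met a RIP-2 segment had a like median of 69.7. Of the 385 long RIP-1 segments, 218 scored above the highest of the overlapped ones. In RIP-2 the 9 overlapped long segments scored from 58.3 to 311 with a median of 106, and the 68 others had a median of 123, with 12 long segments above 311. These medians describe single lists and were not tested.

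Of the 4 overlaps between long segments, 1 had the same edges in both experiments. It was chr1:197069560-197074315 on the minus strand, 4755 bp long, with a RIP-1 score of 57.4 and a RIP-2 score of 311. On the plus strand of chromosome 7, the RIP-1 segment chr7:99169867-99172050 (2183 bp, score 70.0) and the RIP-2 segment chr7:99169867-99171876 (2009 bp, score 92.6) began at the same base. They ended 174 bp apart. On the minus strand of chromosome 12, chr12:120123633-120126060 in RIP-1 (2427 bp, score 112) enclosed chr12:120123656-120125895 in RIP-2 (2239 bp, score 154). Their 5′ edges were 165 bp and their 3′ edges 23 bp apart. On the plus strand of chromosome 11, chr11:32998977-33001222 in RIP-1 (2245 bp, score 68.0) overlapped chr11:32998542-33001147 in RIP-2 (2605 bp, score 106) by 2170 bp. The RIP-2 segment began 435 bp and ended 75 bp further upstream. In all 4 pairs the overlap covered at least 83.3% of each segment, the 3′ edges lay within 200 bp, and the RIP-2 score was the higher.

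In 5 pairs a long RIP-2 segment met a shorter RIP-1 segment, and each of these RIP-1 segments lay wholly inside it. The 5′ edge was common in 4 of them, and the RIP-2 segment then ran on by 429 to 1195 bp beyond the RIP-1 segment at the 3′ side. These 4 were chr6:109687805-109690220 on the minus strand, chr3:195776518-195779055 on the minus strand, chr10:124189139-124191387 on the plus strand and chr15:55651058-55653142 on the minus strand, by their RIP-2 positions. Their overlaps were 1986, 1812, 1311 and 889 bp. Their RIP-1 scores were 190, 75.5, 68.3 and 89.5, and their RIP-2 scores 107, 64.5, 224 and 69.3. The RIP-2 segment of the fifth pair, chr2:17961887-17964918 on the plus strand, extended beyond its partner by 1715 bp at the 5′ and 372 bp at the 3′ side.

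In 15 pairs a long RIP-1 segment met a shorter RIP-2 segment, and 12 of these RIP-2 segments lay wholly inside it. These 15 pairs came from 12 RIP-1 segments, since 3 of them met 2 RIP-2 segments each. The 3 were chr21:35470945-35477488, chr1:68168641-68170868 and chr2:191797441-191799910. The overlaps ran from 279 to 1981 bp. A common 5′ edge was seen in 1 pair (chromosome 4, RIP-1 start 57796006 on the plus strand) and a common 3′ edge in 2 pairs. The latter were on the minus strand, at the lower edges 40668362 on chromosome 21 and 75127954 on chromosome 14. The 3′ edges lay within 200 bp in 9 of these 15 pairs and the 5′ edges in 3. The 5 largest overlaps with a shorter partner had 1986, 1981, 1812, 1792 and 1764 bp, on chromosomes 6, 21, 3, 15 and 21.

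**Figure D3:**
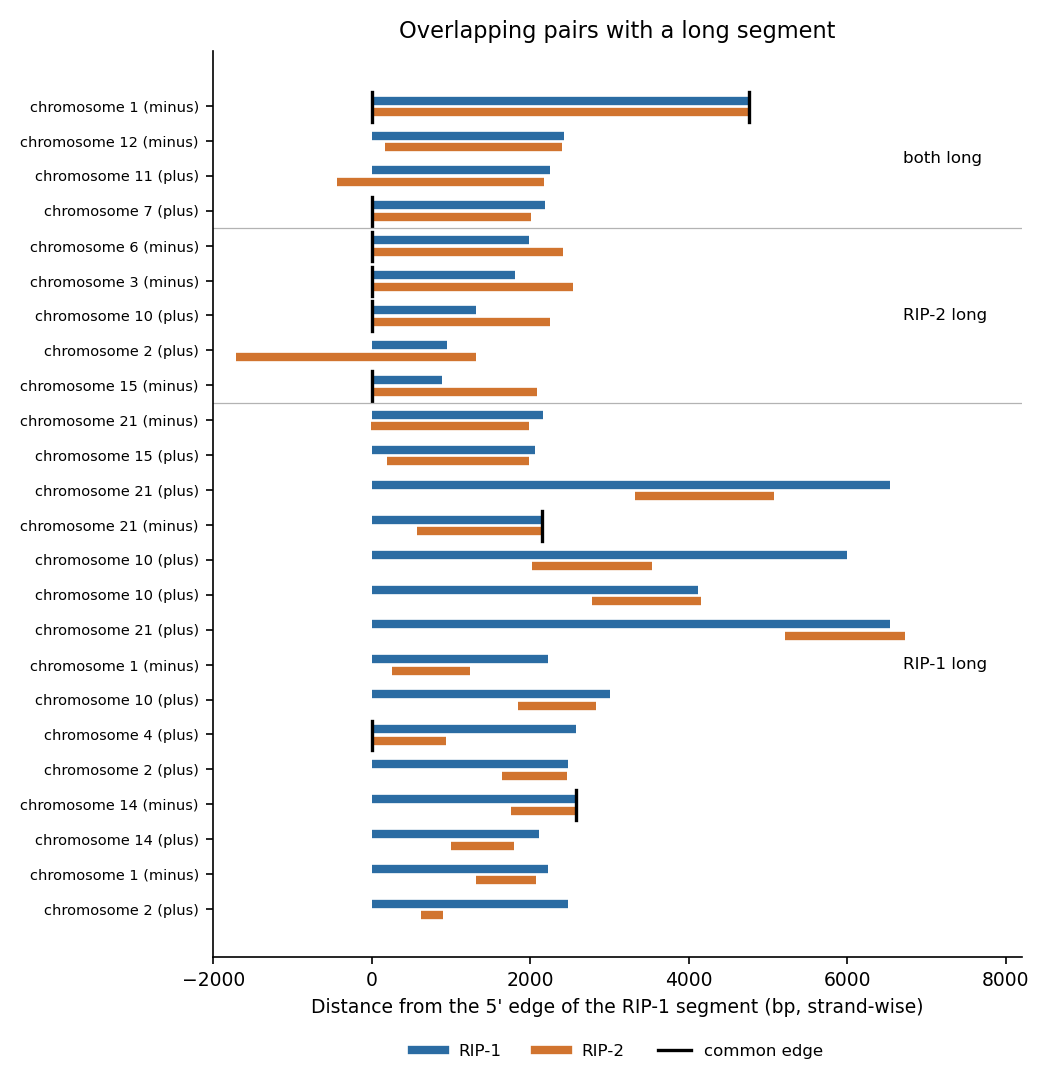
The 24 overlapping pairs of RIP-1 (blue, upper bar) and RIP-2 (orange, lower bar) segments in which at least 1 is long, drawn 5′ to 3′ and to scale in bp from the 5′ edge of the RIP-1 segment, with the chromosome and strand of each. Black ticks mark edges that are identical in both lists, of which the pair on chromosome 1 at the top has 2, 6 pairs have a 5′ one alone and 2 pairs a 3′ one alone.

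Most of these pairs had no common edge. Over all 24 pairs, both edges were common in 1 (4.17%, 95% CI 0.739 to 20.2), against 65.9% of all 710 overlapping pairs of the lists. A pair of a long and a shorter segment cannot have both edges in common, so only the 4 pairs of long segments could show this. The limit also bears on each edge taken by itself, since most pairs with a common edge in the lists had both in common. The 5′ edge was common in 7 pairs (29.2%, 95% CI 14.9 to 49.2), against 77.9% of all pairs, and the 3′ edge in 3 pairs (12.5%, 95% CI 4.34 to 31.0), against 75.5%. No edge was common in 15 pairs (62.5%, 95% CI 42.7 to 78.8), against 74 of the 686 pairs of shorter segments (10.8%). Because the length rule barred 20 of the 24 pairs from having both edges in common, these contrasts with all pairs are a description and nothing is read from them. Counting pairs with exactly 1 common edge, the 5′ edge alone was common in 6 of the 24 (25%, 95% CI 12.0 to 44.9), against 12.0% of all pairs. The 3′ edge alone was common in 2 (8.33%, 95% CI 2.32 to 25.8), against 9.58%. For each of these edges the interval of the 24 pairs overlaps that of all pairs (9.79 to 14.6 for the 5′ and 7.63 to 12.0 for the 3′ edge). The length rule bears on these shares too. Pairs with both edges in common, 65.9% of all pairs, cannot have exactly 1, so nothing is read from this contrast either.

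Lower shares of common edges were also seen in longer classes of pairs without a long segment. With the longer segment of a pair under 300 bp, both edges were common in 423 of 474 pairs (89.2%). The share was 26.6% of 143 pairs from 300 to 999 bp and 8.70% of 69 pairs from 1000 to 1999 bp. For the 5′ edge the shares of these classes were 93.5%, 53.8% and 37.7%, and for the 3′ edge 95.4%, 48.3% and 17.4%. From 300 bp upward the 5′ edge was common more often than the 3′ edge. The counts were 77 against 69 pairs from 300 to 999 bp, 26 against 12 from 1000 to 1999 bp and 7 against 3 at 2000 bp or more. In the last class, pairs with only the RIP-1 segment long went the other way, with 1 against 2. The intervals of the 5′ and 3′ shares overlap in each class, but both edges come from the same pairs and the intervals ignore this. From 300 to 999 bp the 5′ edge alone was common in 39 pairs and the 3′ edge alone in 31. From 1000 to 1999 bp the 5′ edge alone was common in 20 pairs and the 3′ edge alone in 6. At 2000 bp or more these counts were 6 and 2. The difference was not tested. By distance the order in the 24 pairs was the other one, with a median offset of 505 bp between the 5′ edges and 185 bp between the 3′ edges. The 5′ edges lay within 200 bp in 10 pairs and the 3′ edges in 13. With edges within 50 bp taken as common, the shares were 33.3% for the 5′ and 25% for the 3′ edge.

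**Figure D4:**
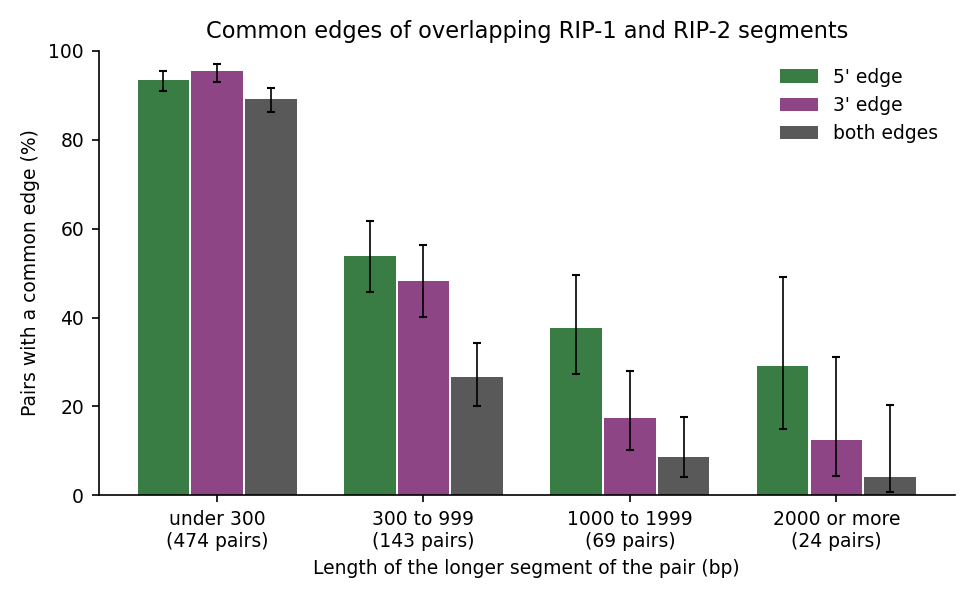
Share of overlapping RIP-1 and RIP-2 pairs with an identical 5′ edge, 3′ edge or both edges, by the length in bp of the longer segment of the pair, with 95% Wilson intervals. The bars for both edges go from 89.2% under 300 bp to 4.17% at 2000 bp or more, and in the longest class the 5′ bar (29.2%) and the 3′ bar (12.5%) have overlapping intervals.

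Within 5, 20 or 50 kb, long RIP-1 segments had a neighbour upstream more often than downstream, while within 1 kb they did not. Within 20 kb on the same strand, 148 of 385 had another RIP-1 segment upstream (38.4%, 95% CI 33.7 to 43.4) and 54 had one downstream (14.03%, 95% CI 10.9 to 17.8). The intervals do not overlap, but both shares come from the same segments and the intervals ignore this. The upstream count was 2.74 times the downstream one. An upstream neighbour without a downstream one was found for 129 and the reverse for 35, while 19 had both and 202 had neither. Within 1 kb the counts were 20 upstream and 22 downstream, a ratio of 0.909, and within 5 kb they were 64 and 31. RIP-1 segments of 1000 to 1999 bp had similar shares of 39.1% and 17.5%, so this arrangement was shared with the next shorter class. Segments under 300 bp went the other way, with 34.4% upstream and 41.3% downstream.

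In RIP-2 the same count leaned the same way, with overlapping intervals within 20 kb and separate ones within 50 kb. An upstream neighbour within 20 kb was found for 32 of 77 (41.6%, 95% CI 31.2 to 52.7) and a downstream one for 22 (28.6%, 95% CI 19.7 to 39.5). Within 50 kb, 44 had one upstream (57.1%, 95% CI 46.0 to 67.6) and 25 had one downstream (32.5%, 95% CI 23.1 to 43.5). Here too both shares come from the same segments, which the intervals ignore. An upstream neighbour within 20 kb without a downstream one was found for 21 and the reverse for 11. Within 5 kb the counts were equal, at 12 and 12, and within 1 kb they were 6 upstream and 7 downstream. The RIP-2 class of 1000 to 1999 bp had 36.2% upstream and 22.1% downstream. Whether a neighbour belongs to the same gene was not analysed here.

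**Figure D5:**
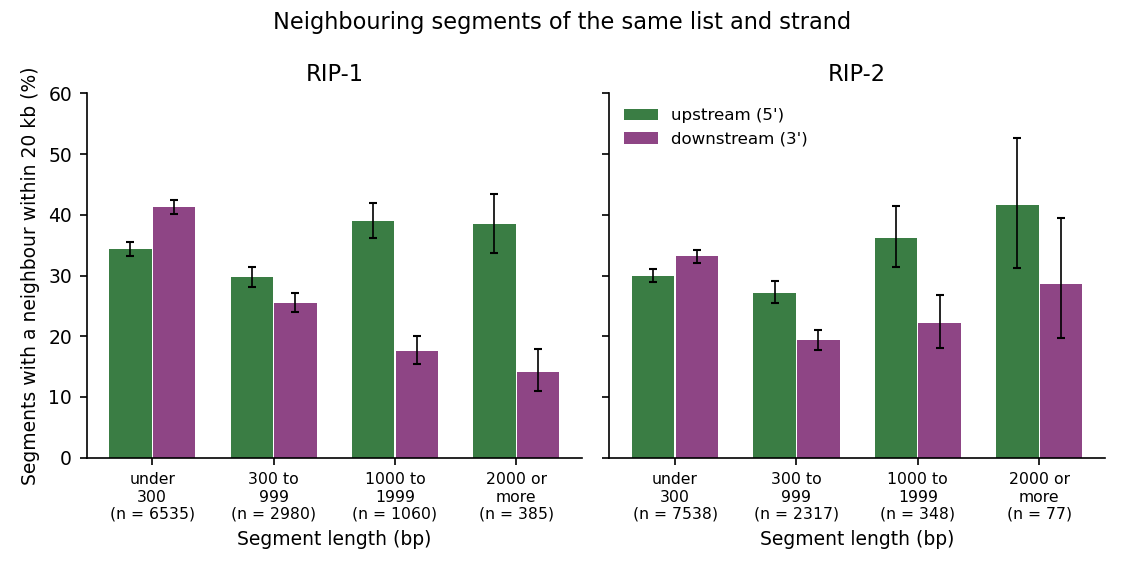
Share of segments with another segment of the same list on the same strand within 20 kb upstream (5′ side) or downstream (3′ side), by segment length in bp, with 95% Wilson intervals. In RIP-1 the long segments have 38.4% upstream and 14.03% downstream, the reverse order of the segments under 300 bp, and in RIP-2 the long segments have 41.6% and 28.6% with overlapping intervals.

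Long segments without a partner in the other experiment differed in how often a segment of the other list lay nearby. For 30 of the 369 in RIP-1 a RIP-2 segment lay within 20 kb on the same strand (8.13%, 95% CI 5.75 to 11.4), against 21.9% of the shorter RIP-1 segments without a partner (95% CI 21.1 to 22.7). For 22 of the 68 in RIP-2 a RIP-1 segment lay within 20 kb (32.4%, 95% CI 22.4 to 44.2), against 27.4% of the shorter ones (95% CI 26.5 to 28.3). The RIP-1 intervals do not overlap and the RIP-2 intervals do. Among shorter RIP-1 segments without a partner, the share within 20 kb also fell with length. It was 24.9% under 300 bp, 17.9% from 300 to 999 bp and 14.6% from 1000 to 1999 bp (95% CI 12.5 to 16.9). Within 5 kb the shares of the long segments and of the class of 1000 to 1999 bp were 2.71% and 4.99%. Within 50 kb they were 20.9% and 26.1%. At both of these distances the intervals of the long segments and of that class overlap. Neighbouring segments are not independent, and no further test was made.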

How the data were processed

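RNA from HEK293T cells was immunoprecipitated in 2 experiments. The submitters' processing notes name cutadapt (version 1.9.3), HISAT2 (version 2.0.4) and the build hg19. For the peak caller, the version, settings and control library were not given in the sources used here. The peak names carry the prefix MACS, per the deposited files. The score of each peak is a value deposited by the authors, used here only to describe and rank segments within a list. The deposited start, end and length values were used as they stand.

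Long segments were those with end minus start of at least 2000 bp. Overlap required at least 1 bp on the same strand. The 5′ edge is the start on the plus strand and the end on the minus strand, and edges were common when identical. Shares have 95% Wilson intervals, and medians of scores have order-statistic intervals. Depth is unknown. The functions for overlap, edges and neighbours were tested on simulated lists. Python 3.11.15, pandas 2.3.3, scipy 1.17.1 and matplotlib 3.10.9 were used.

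Segments named were all overlapping pairs of long segments, the 5 longest and 5 highest-scoring of each list (ties by length), the 3 on either side of the limit, and the 5 largest overlaps with a shorter partner. Other segments, the neighbour counts and the length classes of pairs were chosen after values were seen. The members and lists were chosen with earlier results of these data known. No hg19 sequence or annotation was used here, so no sequence and no gene name is given.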

Additional observations from a re-analysis of the deposited data

How the results depend on the processing

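Of 72 alternative values, 44 stayed within 1.5 times the reported count or ratio, or inside the reported interval, 26 moved and 2 turned direction. A neighbour ratio of exactly 1 was counted as moved whatever its distance, which applied to RIP-2 within 5 kb. Joining touching segments and ignoring the strand altered no count. With lengths of at least 1500, 2500, 3000 and 4000 bp, the lists held 706, 221, 130 and 42 RIP-1 and 176, 37, 24 and 12 RIP-2 segments, by construction. At 1500, 2500 and 3000 bp, 26, 7 and 5 RIP-1 and 24, 4 and 2 RIP-2 segments were overlapped. When at least 50% of both segments had to overlap, 7 RIP-1 segments remained overlapped, and in the upper 50% by score 5 RIP-1 and 2 RIP-2 segments were. The RIP-1 median score was 137 at 1500 bp and 208 at 3000 bp, and the RIP-2 median 165 at 3000 bp. At 3000 bp the plus strand held 60.8% in RIP-1 and 25% in RIP-2. A common 5′ edge was found in 50% of the 4 pairs of long segments and in 14.3% of 7 pairs at 3000 bp. The ratio of upstream to downstream neighbours was 4.45 in RIP-1 at 3000 bp and 1 in RIP-2 within 5 kb, and within 1 kb it turned, with values of 0.909 (RIP-1) and 0.857 (RIP-2). The neighbour counts and their alternatives were chosen after seeing the data. The cause was not tested for any of these shifts. No paired analysis was possible because the files give 1 peak list for an experiment and nothing per library, and leaving out an experiment leaves nothing to overlap. Unknown depth limits every comparison of counts and scores between the lists.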

Other observations

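Some long segments lay side by side. In RIP-1, 6 pairs of neighbouring long segments were within 20 kb of each other on the same strand, and in RIP-2 there were 4. The closest were on the plus strand of chromosome 22, where chr22:40725962-40728151 (score 74.2) and chr22:40728177-40731280 (score 77.4) were 26 bp apart in RIP-1. On the plus strand of chromosome 17, chr17:36557035-36559205 (score 218) and chr17:36559245-36561455 (score 163) were 40 bp apart. On the minus strand of chromosome 10, chr10:105356005-105359448 (score 129) and chr10:105359549-105363546 (score 2002) were 101 bp apart. The second longest RIP-1 segment, on chromosome 3, had a long neighbour 219 bp upstream of it, chr3:38524628-38527575 (score 148). In RIP-2, gaps of 166 bp separated chr2:85545256-85547298 (score 123) from chr2:85547464-85549922 (score 333), and 346 bp separated chr8:86568842-86571115 (score 273) from chr8:86571461-86574427 (score 612), both on the minus strand. The other 2 RIP-2 pairs, on chromosomes 13 and 7, had gaps of 3972 and 5446 bp.

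Non-exon peaks carry no strand in the lists. None of the 462 long segments overlapped a non-exon peak of either experiment. Within the same experiment no segment of any length did, so that part says nothing about the long ones. Among shorter segments, 18 of 10575 in RIP-1 overlapped a RIP-2 non-exon peak (0.170%) and 22 of 10203 in RIP-2 overlapped a RIP-1 non-exon peak (0.216%), so at that rate the long segments would hold very few. Beside the segments, a RIP-1 non-exon peak lay within 5 kb downstream of 19 of 385 long RIP-1 segments (4.94%, 95% CI 3.18 to 7.58), against 10.6% of shorter ones (95% CI 10.03 to 11.2). On the upstream side the shares were 8.31% (95% CI 5.95 to 11.5) and 9.36% (95% CI 8.82 to 9.93). In RIP-2 a non-exon peak of the same experiment lay within 5 kb downstream of 12 of 77 long segments (15.6%, 95% CI 9.15 to 25.3), against 23.2% of shorter ones, and upstream of 15 (19.5%, 95% CI 12.2 to 29.7), against 22.9%. The downstream intervals in RIP-1 do not overlap, and those in RIP-2 were not separated.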
